A study of Mus musculus with 24 samples.

Results

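Expression of 10 tubular injury and repair genes was followed in control and hydronephrotic mouse kidneys. The genes Lcn2, Havcr1, Spp1, Clu, Vcam1, Sox9, Cd44, Cd24a, Vim and Anxa2 were chosen by name, as Lcn2 and 9 genes that are read beside it, and make up 10 of the 27958 genes tested. All 10 were measured, through 14 probes on the array, and 1 probe per gene is reported unless another is named.

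The 24 whole kidneys came from young male mice. The 6 control kidneys were mgb+/+, and the other 18 came from age-matched mgb-/- (megabladder) mice. The homozygous mgb mutation leaves the bladder atonic, so urine is retained and the kidneys become hydronephrotic without any surgery or treatment. Ultrasound graded each mgb-/- kidney by the parenchyma it retained, with 7 mild, 5 moderate and 6 severe. No mgb-/- kidney without hydronephrosis was in the set, so the genotype and the obstruction cannot be told apart. Which kidneys, if any, share a mouse is not stated, and the p-values measure the spread between these kidneys. The question addressed by these comparisons is how the kidney responds to congenital obstruction of rising degree.

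In an obstructed kidney the tubules are stretched, lose part of their transport machinery and switch on a program of injury and repair genes. Lcn2 (lipocalin 2, also called NGAL) is a secreted carrier of iron-binding siderophores, and Havcr1 (KIM-1) is a surface receptor that takes up dead cells. Both are used as urinary markers of tubular injury. Spp1 (osteopontin) is a secreted matrix protein and Clu (clusterin) a secreted chaperone. Vcam1 is an adhesion molecule for leukocytes that also marks tubule cells in failed repair, Sox9 is a transcription factor of regenerating tubule cells, Cd44 is the hyaluronan receptor that also binds osteopontin, and Cd24a is a surface glycoprotein of tubular progenitor-like cells. Vim (vimentin) is an intermediate filament of mesenchymal and dedifferentiated cells, and Anxa2 (annexin A2) is a membrane-bound calcium-binding protein.

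RefSeq promoter sequences (build GRCm38.p6) were matched for 6 of the 10 genes, with 9 annotated start sites among them. The 250 bases before the start site are shown for Lcn2, against which the other genes are read, for Spp1, the gene that passed in the comparison of all mgb-/- kidneys with control, and for Anxa2 and Vim, which hold the letters of factors active in injured tubules. Capitals mark a match to the AP-1, TATA box or NF-kappaB letters. The search covered 4 motifs on both strands of the promoters with 50 further bases after the start site. The motifs were AP-1 (TGANTCA), STAT (TTCNNNGAA), the TATA box (TATAAA) and the NF-kappaB consensus. The sequences lie at chr2:32387740-32387989 (minus strand), chr5:104434861-104435110 (plus strand), chr9:69453433-69453682 (plus strand) and chr2:13574061-13574310 (plus strand), and are written 5′ to 3′ on the strand of the gene.
Lcn2: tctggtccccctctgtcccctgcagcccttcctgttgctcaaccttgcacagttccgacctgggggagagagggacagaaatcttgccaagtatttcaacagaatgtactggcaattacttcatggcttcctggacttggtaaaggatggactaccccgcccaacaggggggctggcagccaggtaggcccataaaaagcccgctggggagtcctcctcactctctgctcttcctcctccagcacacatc
Spp1: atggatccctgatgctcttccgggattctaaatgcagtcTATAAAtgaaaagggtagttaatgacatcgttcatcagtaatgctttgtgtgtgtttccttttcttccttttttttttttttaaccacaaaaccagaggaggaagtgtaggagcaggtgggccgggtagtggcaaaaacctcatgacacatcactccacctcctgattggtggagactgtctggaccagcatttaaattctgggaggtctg
Anxa2: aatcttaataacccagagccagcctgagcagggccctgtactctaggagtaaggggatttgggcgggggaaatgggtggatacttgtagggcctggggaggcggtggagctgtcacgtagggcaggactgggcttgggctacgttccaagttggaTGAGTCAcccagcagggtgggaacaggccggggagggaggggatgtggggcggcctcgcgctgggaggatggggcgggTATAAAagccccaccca
Vim: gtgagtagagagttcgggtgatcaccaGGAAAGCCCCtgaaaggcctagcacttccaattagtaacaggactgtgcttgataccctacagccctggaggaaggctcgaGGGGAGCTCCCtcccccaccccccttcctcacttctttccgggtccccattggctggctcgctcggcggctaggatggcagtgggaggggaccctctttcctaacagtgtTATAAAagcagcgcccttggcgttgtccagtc
No base of the Lcn2 window is in capitals, since none of the 4 motifs is spelled there. Spp1 held a TATA box whose first base lies at -211 from the start site. Anxa2 held the AP-1 letters TGAGTCA at -95 and a TATA box at -17. Vim held 3 matches to the NF-kappaB consensus, of which the pair beginning at -142 and -141 overlap, and a TATA box at -32. Among the remaining start sites, 1 of Havcr1 held the AP-1 letters TGAATCA at 11 bases after the start, and that of Cd44 held none of the motifs. Of all 32851 RefSeq promoters of this length, 8.46% held an NF-kappaB match, 7.81% an AP-1 match, 13.6% a TATA box and 8.30% a STAT match. A match is a description of the letters, not of binding.

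Each value is a log2 level, the background-subtracted intensity of a probe relative to the 75th percentile of its array, so 0 is that percentile. The share of probes well above background ranged from 55.1% to 70.7% per array. The array of severe replicate 4 had the lowest share and 660 outlier spots against 102 to 261 on the other arrays. The reported probe of 9 genes was well above background on all 24 arrays. That of Sox9 was so on 20 of 24, missing in 1 control, 1 mild and 2 severe kidneys, so the low Sox9 levels are close to background. As a check of the tissue, all 20 proximal tubule markers, all 6 of the thick ascending limb and 7 of 8 of the collecting duct were measured. The summed proximal tubule level was between 11.41 and 11.72 on the log2 scale in control kidneys and between 9.71 and 11.92 in mgb-/- kidneys.

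Lcn2 was at a log2 level between -1.34 and -0.35 in control kidneys (median -0.67) and between -0.87 and 1.27 in mild kidneys (median -0.32). In the 5 moderate kidneys it was 6.59, -1.05, 4.29, 5.30 and -1.16. Severe kidneys spanned -0.27 to 5.48 (median 1.75). Moderate kidneys thus fell into 3 high and 2 at the control level, and all 6 severe kidneys lay above every control kidney. The highest, moderate replicate 1, was 167-fold above the control mean. Because whole kidneys were measured, fewer cells of a type and less RNA per cell cannot be told apart.

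Havcr1 followed the same kidneys. It ranged from -3.50 to -2.56 in control (median -3.24) and from -3.33 to -2.26 in mild kidneys (median -2.83), and was 1.81, -3.08, -0.05, 1.93 and -2.60 in moderate kidneys. Severe kidneys spanned -3.48 to 4.16 (median -1.41). Severe replicate 5 was the highest kidney, 158-fold above the control mean, while 2 of the 6 severe kidneys lay within the control range. Control and severe kidneys therefore overlapped for Havcr1 and did not for Lcn2.

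Spp1 had the tightest control values, from 4.11 to 4.42 (median 4.23, SD 0.10, n = 6). Mild kidneys ranged from 4.62 to 5.41 (median 5.02), and none overlapped with control. Moderate kidneys were at 7.02, 4.12, 5.85, 7.22 and 4.60. Severe kidneys spanned 4.42 to 6.58 (median 5.19). In all, 16 of 18 mgb-/- kidneys exceeded every control kidney. Clu ranged from 5.92 to 6.43 in control (median 6.11), 5.93 to 6.78 in mild (median 6.25) and 4.28 to 7.90 in severe kidneys (median 6.54). Its moderate values of 8.30, 5.94, 7.92, 8.46 and 6.04 split into the same 3 high and 2 low kidneys as Lcn2. Severe replicate 4, whose array had the most outlier spots, gave the lowest Clu and the lowest Anxa2 level of all 24 kidneys.

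Cd44 ranged from -3.59 to -2.99 in control (median -3.16), from -3.70 to -1.15 in mild (median -2.72) and from -2.87 to 1.49 in severe kidneys (median -1.77). Its moderate values were -0.61, -2.07, -0.79, -1.68 and -3.19. All 6 severe kidneys lay above every control kidney. Mild kidneys were spread widely for Cd44 (SD 1.03, n = 7, against 0.28 in control, n = 6), with 4 of 7 above every control. Cd24a ranged from 3.25 to 3.62 in control (median 3.42), 3.37 to 4.08 in mild (median 3.95) and 3.50 to 4.63 in severe kidneys (median 4.20), and was 4.61, 3.23, 4.58, 4.37 and 3.19 in moderate kidneys. Its whole range over mgb-/- kidneys was 2.72-fold, against 216-fold for Lcn2.

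For Vcam1, Sox9, Vim and Anxa2, as for Cd44 and Havcr1, severe replicate 5 was the highest of all 24 kidneys. It had a Vcam1 level of 4.57, while the remaining 23 kidneys ranged from 0.05 to 1.94. Its Sox9 level was -1.20 against -5.86 to -3.03 elsewhere, its Vim level 5.40 against 2.39 to 4.07, and its Anxa2 level 7.22 against 4.27 to 5.98. Mild kidneys ranged from 0.59 to 1.72 for Vcam1, from -5.64 to -4.16 for Sox9, from 2.89 to 3.34 for Vim and from 5.01 to 5.44 for Anxa2. The control ranges were 0.31 to 1.01, -5.86 to -4.82, 2.50 to 2.90 and 4.67 to 5.35 in the same order, and of these 4 genes only Vim and Anxa2 had all 7 mild kidneys above the control mean. Relative to the control mean, severe replicate 5 was 14.1-fold higher for Vcam1, 18.3-fold for Sox9, 6.76-fold for Vim and 5.05-fold for Anxa2. The same kidney had the highest mean log2 level of 14 leukocyte markers (0.93, against at most -0.40 in control kidneys), 8 neutrophil markers (0.50, against -2.83 to -2.14) and 10 fibroblast markers (4.26, against 1.90 to 2.26), and the part of those cells in its levels was not tested. Sox9 also had the same 3 higher and 2 lower moderate kidneys as Lcn2, at -3.03, -5.27, -3.89, -3.95 and -5.16. The plot of levels by group shows the split of the moderate kidneys and the position of severe replicate 5.

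**Figure D1:**
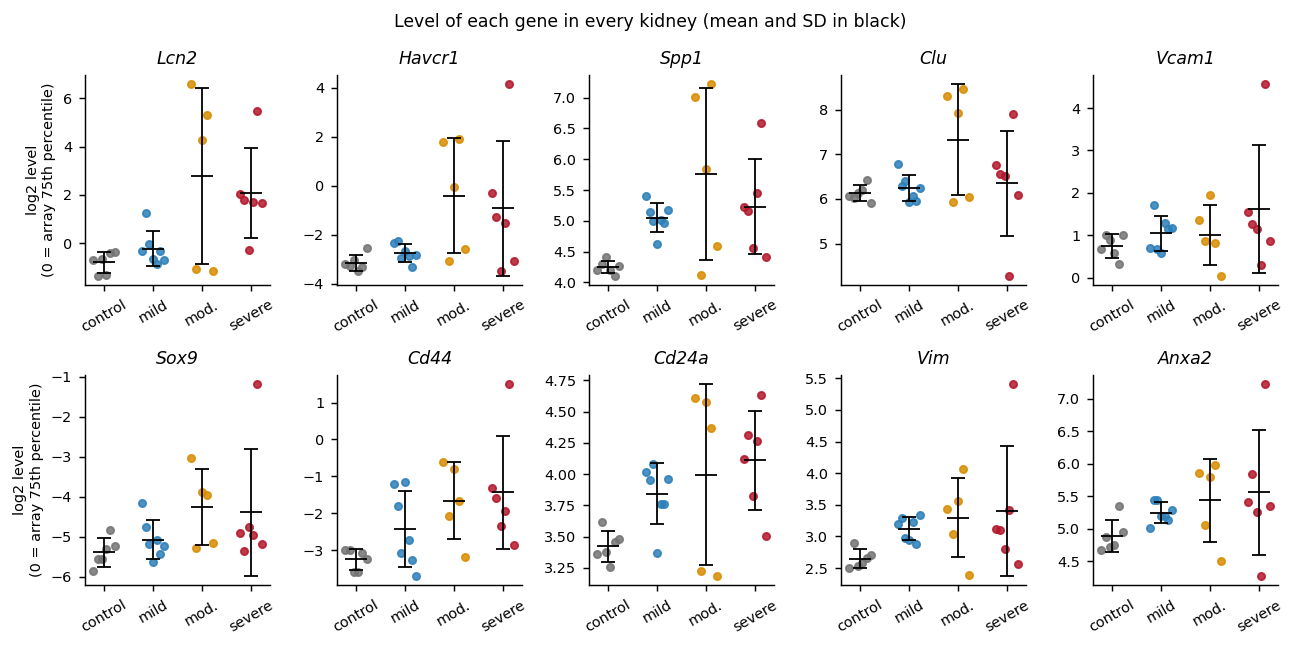
Log2 level of each of the 10 genes (y axis, 0 is the 75th percentile of the array) in every kidney, by group (x axis), with group mean and SD in black. The moderate kidneys of Lcn2, Havcr1, Spp1, Clu, Sox9 and Cd24a are split into 3 higher and 2 lower, and severe replicate 5 is the top point for 7 of the 10 genes.

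Set against the 6 control kidneys, all 10 genes had a higher mean in the 18 mgb-/- kidneys. Their median log2 change was 0.69, against 0.01 over all genes. Spp1 was the 1 gene of the 10 that passed at an adjusted p under 0.05 in limma, beside 5.34% of all genes that passed as higher. Its mean was 5.31 ± 0.86 (SD, n = 18) against 4.25 ± 0.10 (SD, n = 6), a log2 change of 1.06 (SE 0.35, limma adjusted p = 0.0442). All but 1 of the 18 kidneys, 17 in number, exceeded the control mean. Cd24a had a log2 change of 0.55 (SE 0.19, limma adjusted p = 0.0508) and Cd44 one of 1.37 (SE 0.50, limma adjusted p = 0.0675). The largest differences of means belonged to Lcn2, at 2.17 (SE 0.99, limma adjusted p = 0.147), and Havcr1, at 1.66 (SE 0.87, limma adjusted p = 0.208). Vim had a change of 0.62, Anxa2 0.52, Sox9 0.77, Vcam1 0.48 and Clu 0.45, with limma adjusted p from 0.122 to 0.502. The call of Spp1 was held in 10 of 24 fits with 1 kidney left out and was lost (adjusted p from 0.0501 to 0.0839) without any of the 6 controls, mild replicate 1, 2, 3 or 7, moderate replicate 3, or severe replicate 1, 2 or 4. It was also lost in 4 of 11 other settings, among them median scaling (adjusted p = 0.0999), no dim-probe filter and the replicate number as a block. Within each of the 3 slides of 8 arrays the difference was positive for all 10 genes.

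By grade, the means of mild, moderate and severe kidneys were each above the control mean for all 10 genes, as they were for 33.4% of all genes, except that Clu in mild kidneys turned to -0.035 with median scaling. The grades were each compared with the same 6 controls. In mild kidneys the log2 changes ran from 0.11 for Clu to 0.83 for Cd44, and none of the 10 passed (3.01% of all genes passed as higher), nor had any an unadjusted p under 0.05 in limma. Spp1 was the 1 gene whose mild and control kidneys did not overlap, as was so for 2.97% of all genes. When only mild and control kidneys were fitted, so that the wide spread of the other grades did not enter, 4 passed beside 8.33% of all genes. These were Spp1 (log2 change 0.80, limma adjusted p = 0.000453), Vim (0.47, limma adjusted p = 0.00507), Cd24a (0.42, limma adjusted p = 0.0191) and Anxa2 (0.36, limma adjusted p = 0.0445).

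In moderate kidneys the log2 change against control was 3.59 for Lcn2 (SE 1.12, limma adjusted p = 0.0998), 2.75 for Havcr1 (SE 1.02, limma adjusted p = 0.155), 1.58 for Cd44, 1.51 for Spp1 (SE 0.43, limma adjusted p = 0.0775), 1.20 for Clu (SE 0.48, limma adjusted p = 0.188) and 1.13 for Sox9, and below 1 for the other genes. None of the 10 genes passed, beside 0.647% of all genes as higher, and 6 had an unadjusted p under 0.05. No gene had all moderate kidneys above all controls, as 1.33% of all genes did, since moderate replicate 2 or 5 lay within or below the control range for each of the 10. With array quality weights, which give less weight to arrays that depart from their group, 9 of the 10 passed, beside 7.43% of all genes as higher under the same weights. Leaving out moderate replicate 2, moderate replicate 5 or severe replicate 5 let 2 pass.

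In severe kidneys Cd44 rose by a log2 change of 1.82 (SE 0.59, limma adjusted p = 0.0403) and Cd24a by 0.69 (SE 0.23, limma adjusted p = 0.0455). For each of them 6 of 6 severe kidneys exceeded the mean of the controls. These were 2 of 10 genes, beside 6.57% of all genes that passed as higher. Lcn2 and Cd44 had no overlap between severe and control kidneys, as was so for 2.86% of all genes. The mean of Clu was above control by 0.22, and below it by -0.091 without severe replicate 5. Lcn2 had a change of 2.86 (SE 1.07, limma adjusted p = 0.0692), Havcr1 one of 2.23 (SE 0.97, limma adjusted p = 0.117), which was 1.21 without severe replicate 5, and Spp1 one of 0.98 (SE 0.41, limma adjusted p = 0.108). The change of Cd44 was 1.23 (adjusted p = 0.0889) without severe replicate 5, and its call was also lost without any 1 of the controls or without severe replicate 1 or 2 (adjusted p from 0.0561). The call of Cd24a was lost without any 1 of the controls, any mild replicate but the fourth, or severe replicate 1, 2, 4 or 5 (adjusted p from 0.0513 to 0.103). Cd44 did not pass under quantile normalization (adjusted p = 0.0571) or in the authors' table (0.0768), where Cd24a did, and neither passed with median scaling (0.0628 and 0.175) or without the dim-probe filter (0.0538 and 0.0627). When only severe and control kidneys were fitted, Cd44 was lost (limma adjusted p = 0.0789), Lcn2 passed (limma adjusted p = 0.0387) and Cd24a still passed, beside 3.96% of all genes. In severe against control 11 of 12 urothelial genes also passed as higher, with a median log2 change of 3.18 against 0.02 over all genes, and 2 of 10 fibroblast genes. The part of these cells in the levels of Cd44 and Cd24a was not tested.

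**Figure D2:**
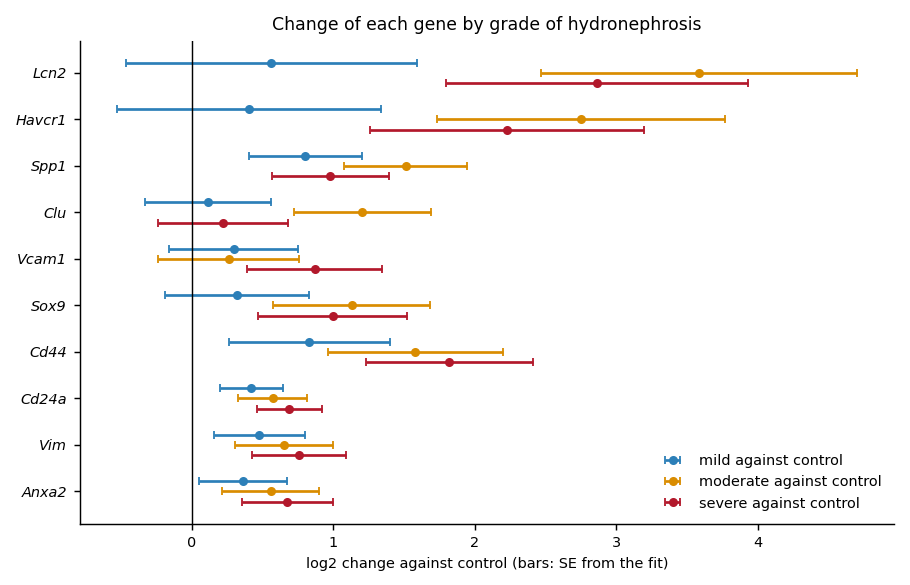
Log2 change of each gene (x axis) in mild, moderate and severe mgb-/- kidneys against the same 6 control kidneys, with the SE of the limma fit as bars. Lcn2, Havcr1, Spp1, Clu and Sox9 have their largest change in moderate kidneys, at 3.59, 2.75, 1.51, 1.20 and 1.13, and the mild changes lie between 0.11 and 0.83.

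Between grades no gene of the 10 passed. From mild to moderate kidneys, Lcn2 differed by 3.02 (SE 1.08, limma adjusted p = 0.576), Havcr1 by 2.35 (SE 0.98, limma adjusted p = 0.662) and Clu by 1.09 (SE 0.47, limma adjusted p = 0.672). These are the 3 genes with an unadjusted p under 0.05 there, in a comparison where no gene of the whole array passed (0% as higher). From moderate to severe kidneys 5 genes had a higher and 5 a lower mean, from -0.99 for Clu to 0.61 for Vcam1, beside 0.00358% of all genes that passed as higher. From mild to severe kidneys all 10 had a higher mean, from 0.11 for Clu to 2.30 for Lcn2, with 1 unadjusted p under 0.05, beside 0.533% of all genes that passed. The slope on the grade, coded 1, 2 and 3, was 1.19 per grade for Lcn2 (SE 0.61, limma adjusted p = 0.606) and between 0.07 and 0.94 for the others. None of the 10 slopes passed, and none had an unadjusted p under 0.05, beside 0.232% of all genes with a rising slope.

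All 10 genes varied more between mgb-/- than between control kidneys. The SD over the 18 mgb-/- kidneys was 8.31 times that of the controls for Spp1, 6.65 times for Havcr1, 5.77 times for Clu, 5.67 times for Lcn2 and 2.52 times for Anxa2, the smallest of the 10. The median over all genes was 1.41 times. The 4 kidneys with the highest Lcn2, moderate replicates 1, 3 and 4 and severe replicate 5, were also the 4 highest for Havcr1, Spp1, Clu, Sox9, Cd24a and Vim. Severe replicate 5 was among the 4 highest for all 10 genes, moderate replicates 1 and 3 for 9 each and moderate replicate 4 for 8. In those 4 kidneys 9 or 10 of the 10 genes exceeded every control kidney. The count was also 9 in mild replicate 2 and in severe replicates 1 and 2, so it does not set those 4 apart. At the other end, moderate replicate 5 had 4 genes above the control mean and 4 below every control kidney, and moderate replicate 2 had 6 above the mean. The map of kidneys shows these columns side by side.

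**Figure D3:**
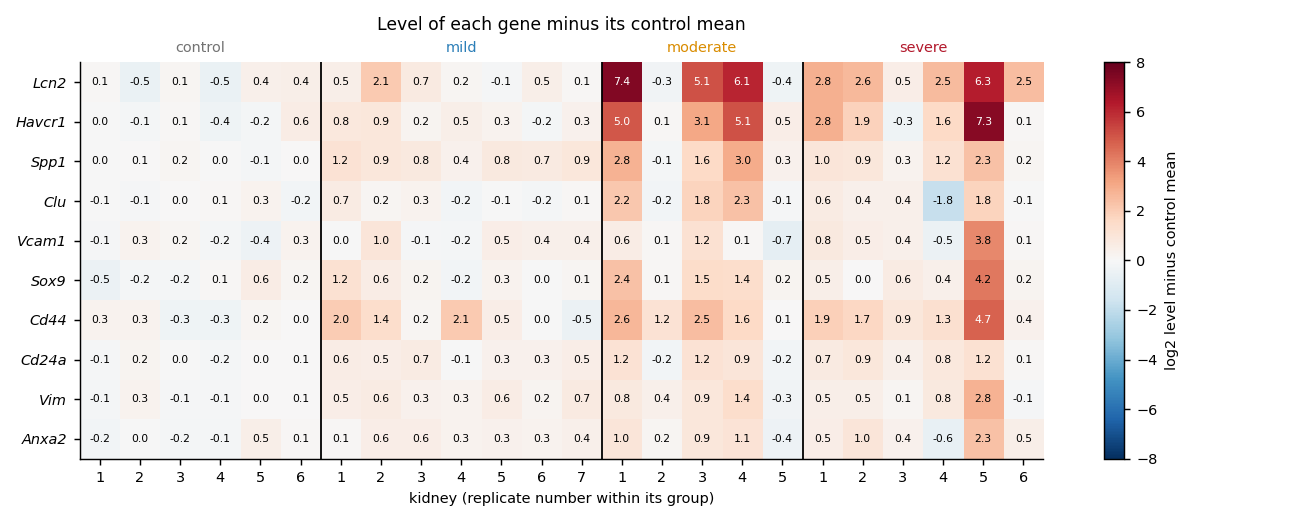
Log2 level of each gene (rows) minus its control mean in each of the 24 kidneys (columns, numbered by replicate within their group), with the value printed in each cell and red for higher. Moderate replicates 1, 3 and 4 and severe replicate 5 are high across the genes, while moderate replicates 2 and 5 have 6 and 4 genes above the control mean.

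The next question was whether the 9 other genes moved with Lcn2 across the 18 mgb-/- kidneys, whatever their grade. All 9 did so with a positive sign. Pearson's r with Lcn2 was 0.91 for Havcr1 and 0.88 for Spp1 (permutation p = 1e-05 for each, the smallest that 100000 permutations can give, two-sided). It was 0.81 for Cd24a, 0.77 for Sox9, 0.74 for Clu, 0.70 for Anxa2, 0.69 for Cd44, 0.67 for Vim and 0.53 for Vcam1 (permutation p from 6e-05 to 0.0192). Spearman's rho was 0.87 for Cd24a (permutation p = 1e-05), 0.77 for Anxa2 (permutation p = 0.00022), 0.74 for Havcr1 (permutation p = 0.00077) and 0.48 for Vcam1 (permutation p = 0.0426), with the others between. These are 9 relations, and the adjustment over all genes is given by the slopes below. With grade means removed r was between 0.60 and 0.91. Over 27657 genes of the array, r with Lcn2 had a median of -0.13 and a 95th percentile of 0.59. The r of Vcam1 lay below that percentile and those of the other genes above it.

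As slopes fitted in limma over all genes, 8 of the 9 passed, beside 4.13% of all genes that passed as rising. Per log2 unit of Lcn2, Havcr1 rose by 0.79 (SE 0.09, limma adjusted p = 5.92e-05), Spp1 by 0.30 (SE 0.04, limma adjusted p = 0.000373), Clu by 0.31 (SE 0.07, limma adjusted p = 0.00855) and Sox9 by 0.34 (SE 0.07, limma adjusted p = 0.00557). Cd44 rose by 0.35, Cd24a by 0.15, Vim by 0.18 and Anxa2 by 0.18 (limma adjusted p from 0.00376 to 0.0254). Vcam1 had a slope of 0.21 (limma adjusted p = 0.103). Without severe replicate 5 it was 0.082 (limma adjusted p = 0.452). The second probe of Vcam1 gave a slope of 0.33 (limma adjusted p = 0.0236), so the 2 probes fall on different sides of the threshold. Without severe replicate 5, 5 of 9 passed, and Cd44 (0.25, limma adjusted p = 0.0992), Vim (0.11, limma adjusted p = 0.0926) and Anxa2 (0.12, limma adjusted p = 0.0956) did not. Without moderate replicate 5, Vim had a limma adjusted p of 0.0557.

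**Figure D4:**
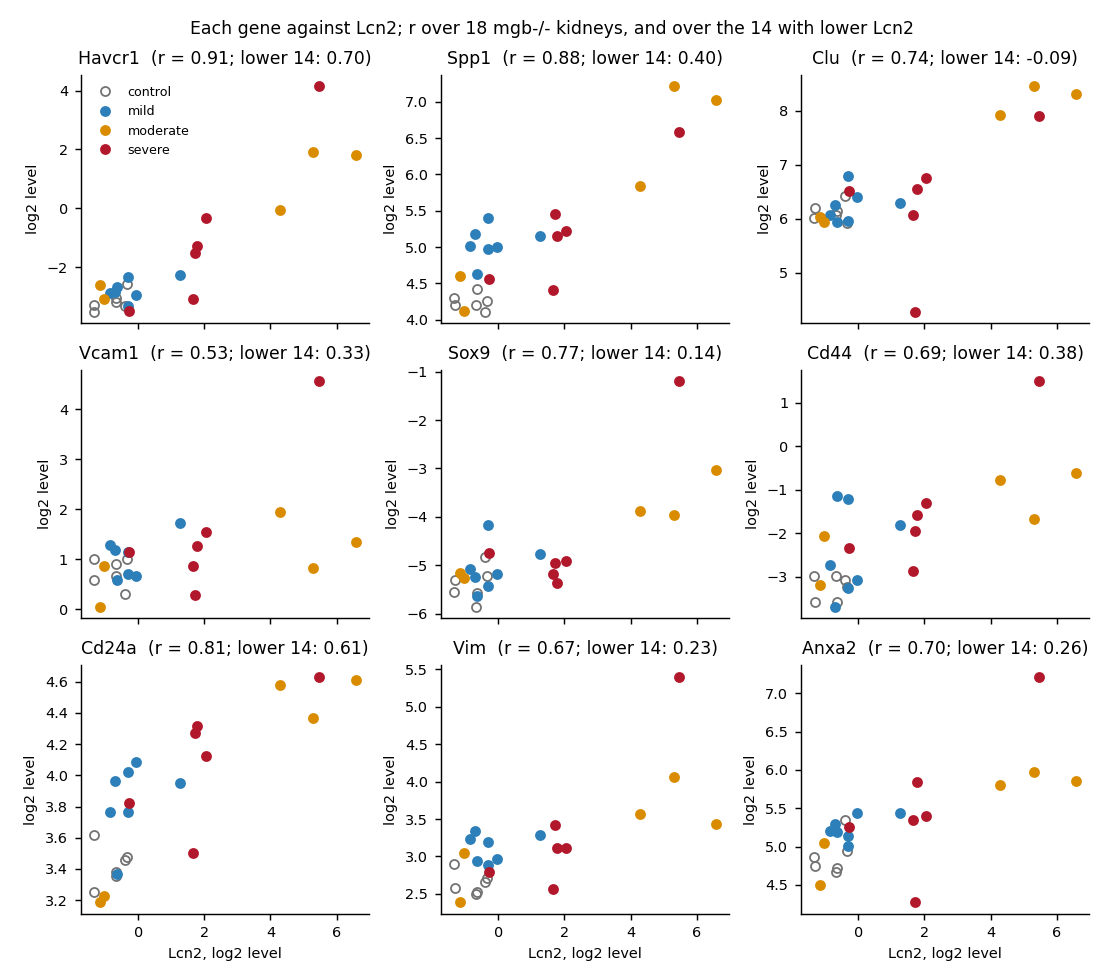
Log2 level of each of 9 genes (y axis) against that of Lcn2 (x axis) in 18 mgb-/- kidneys, coloured by grade, with the 6 controls as open circles, and r over all 18 and over the 14 kidneys of lower Lcn2. The 4 kidneys on the right of each panel, above a gap in Lcn2 from 2.05 to 4.29, are also high for most genes.

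The relation rested largely on few kidneys. The Lcn2 levels of the 18 kidneys leave a widest gap of 2.24 log2 units, 28.9% of their range, between 14 kidneys at or below 2.05 and 4 at or above 4.29. Leaving out the 2 kidneys farthest from the median Lcn2 level, moderate replicate 1 and severe replicate 5, gave r from 0.36 for Vcam1 (permutation p = 0.167) to 0.89 for Havcr1 (permutation p = 2e-05), and 8 of 9 kept a p under 0.05. Within the 14 kidneys below the gap, a split chosen after seeing the data, r was 0.70 for Havcr1 (permutation p = 0.00444) and 0.61 for Cd24a (permutation p = 0.0209). For the other 7 genes it lay between -0.09 for Clu and 0.40 for Spp1, with no permutation p under 0.05. Within the mild kidneys r was between 0.17 and 0.57 with no p under 0.05, and within the severe kidneys it was between 0.51 and 0.95 with 4 under 0.05. By slide of 6 mgb-/- kidneys, r was positive for all 9 genes on all 3 slides, with a p under 0.05 for 4 genes on slide 1, 9 on slide 2 and 3 on slide 3. No share over all genes is given beside the counts within these smaller sets of kidneys.

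The 10 genes were also read against each other. All 45 pairs had a positive r over the 18 kidneys, from 0.43 to 0.91 with a median of 0.74, and the median was 0.62 without severe replicate 5. As a description, the genes of the whole array whose levels were most like Lcn2 over the 18 kidneys were Dcdc2a (r = 0.96), Reg3g (0.96), Il1f6 (0.95), Serpina3n (0.94) and Muc4 (0.93). Dcdc2a encodes a doublecortin-domain protein, Reg3g an antimicrobial lectin, Il1f6 an interleukin-1 family cytokine, Serpina3n an acute-phase protease inhibitor and Muc4 a membrane mucin. Among 27657 genes ranked this way Havcr1 stood at 18, Spp1 at 41, Cd24a at 176 and Vcam1 at 1850.

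Of 24 receptors, ligands and relatives of the 10 genes, 20 were measured. Of these 1 passed as higher (5%) and 2 as lower (10%) in mgb-/- against control, close to the 5.34% and 8% of all genes. A higher mean was seen for 12 of the 20, and their median log2 change from control was 0.08. Itgav, the alpha subunit of an integrin that binds osteopontin, rose by 0.34 (SE 0.11, limma adjusted p = 0.0435). Timd2, a relative of Havcr1 in the Tim family, fell by 1.86 (SE 0.43, limma adjusted p = 0.00784), and Slc22a17, a receptor for lipocalin 2, fell by 0.37 (SE 0.12, limma adjusted p = 0.0386). With rising Lcn2, Slc22a17 fell by 0.09 per log2 unit (limma adjusted p = 0.00395), as did Lrp2 (megalin, the endocytic receptor that clears filtered lipocalin 2) by 0.15 (limma adjusted p = 0.00766). Has1, a hyaluronan synthase, Itgb3 and Itgb1, integrin subunits, S100a10, the partner of annexin A2, and Des (desmin) rose with Lcn2 by 0.08 to 0.27 per log2 unit (limma adjusted p from 0.00165 to 0.0402). S100a10 had a change of -0.09 against control (limma adjusted p = 0.718).

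Of 40 other genes of tubular injury and repair, 17 passed as higher in mgb-/- against control, beside 5.34% of all genes. Only 1 (2.5%) passed as lower, beside 8% of all genes. The median log2 change of the 40 was 0.94. The largest rises were those of Egr1 (3.64, SE 0.44, limma adjusted p = 6.07e-05), Cxcl1 (3.31, SE 0.61, limma adjusted p = 0.00203) and Atf3 (3.05, SE 0.47, limma adjusted p = 0.000474), each above the control mean in 18 of 18 kidneys. Egr1 and Atf3 are stress-induced transcription factors and Cxcl1 a neutrophil-attracting chemokine. Nt5e, an ecto-enzyme that makes adenosine, fell by 0.75 (SE 0.23, limma adjusted p = 0.0364). On the Lcn2 level the slope was positive for 33 of the 40 genes. Of the 40, 21 passed as rising and none as falling, beside 4.13% and 5.52% of all genes. The passing slopes were led by Timp1, an inhibitor of matrix proteases (0.83 per log2 unit, SE 0.10, limma adjusted p = 0.000107). Next were the cytokine Il6 (0.80, SE 0.13, limma adjusted p = 0.00214) and the fibrinogen chain Fgg (0.61, SE 0.12, limma adjusted p = 0.00607). The 3 genes of the largest rise against control did not pass on this slope, at -0.02 for Egr1, 0.17 for Cxcl1 and 0.06 for Atf3 (limma adjusted p = 0.952, 0.487 and 0.815). Timp1, Il6 and Fgg in turn had changes of 2.50, 1.78 and 1.70 against control and did not pass there (limma adjusted p = 0.0705, 0.226 and 0.153). Whether the pattern of one set differs from that of the other was not tested.

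**Figure D5:**
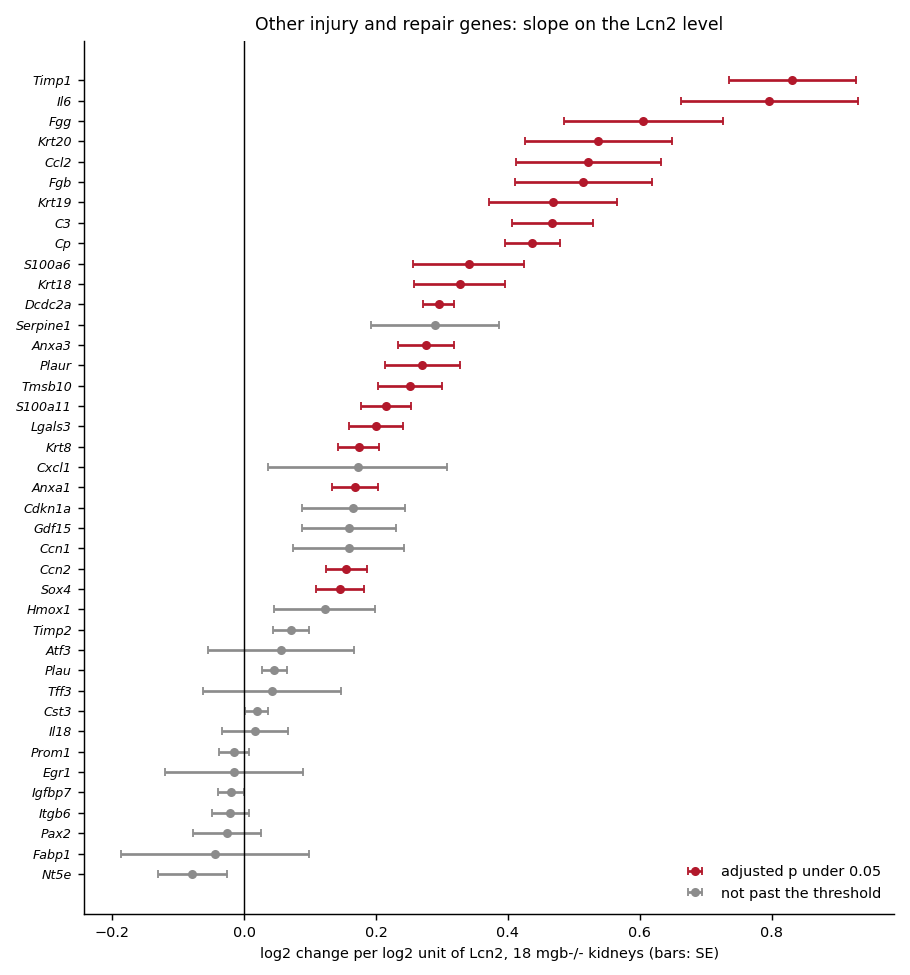
Slope of each of 40 other injury and repair genes on the Lcn2 level over 18 mgb-/- kidneys (x axis, log2 change per log2 unit of Lcn2, bars SE), in red where the adjusted p is under 0.05. Timp1 and Il6 lie at the top with 0.83 and 0.80, while Egr1, at -0.02, and Nt5e lie near or below 0.

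Some markers of nephron segments and of other cell types moved with Lcn2 as well. Of 20 proximal tubule genes none had a positive slope, and 8 passed as falling, beside 5.52% of all genes. Among those 8 were Slc22a6, the organic anion transporter, at -0.22, Gatm, of creatine synthesis, at -0.21 and Ggt1, a brush border peptidase, at -0.20 per log2 unit (limma adjusted p = 0.0363, 0.00395 and 0.00815). Ggt1 was also the 1 proximal tubule gene that passed as lower in mgb-/- against control (by -0.87, limma adjusted p = 0.0355), beside 8% of all genes. A higher mean there was seen for 6 of the 20, and their median log2 change was -0.35. Of 14 leukocyte genes 6 passed as rising with Lcn2, beside 4.13% of all genes, and the slope was positive for 11. Of 8 neutrophil genes 3 passed as rising, namely S100a8 (0.50), S100a9 (0.48) and Mpo (0.23), and the slope was positive for 6. Ly6g, Ngp and Mmp8 were not measured. Elane, Camp, Ltf, Cxcr2 and Csf3r did not pass. Of 10 fibroblast genes 4 passed as rising, and the slope was positive for all 10. Of 12 urothelial genes Krt5 and Krt14 passed as rising and Trp63 as falling, and the slope was positive for 11. Of the smaller sets, 1 of 6 thick limb genes (Egf), 1 of 7 collecting duct genes (Calb1) and 1 of 10 endothelial genes (Kdr) passed as falling. None of these 3 sets had a gene that passed as rising. The slope was positive for 0 of the 6, 3 of the 7 and 8 of the 10 genes.

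Between the groups, the summed neutrophil level ran from 5.62 to 6.90 on the log2 scale in control, 5.94 to 7.71 in mild, 5.78 to 7.22 in moderate and 5.63 to 7.16 in severe kidneys, and the summed leukocyte level from 5.43 to 5.97, 5.46 to 6.53, 5.82 to 6.25 and 3.63 to 7.21 in the same order. No leukocyte or neutrophil gene passed in mgb-/- against control. The summed fibroblast level ran from 6.50 to 6.95, 6.69 to 7.30, 5.74 to 8.12 and 6.79 to 8.77, the summed endothelial level from 6.23 to 6.47, 6.17 to 6.58, 6.01 to 6.53 and 6.30 to 6.62, and Acta2 (1.20) and Dcn (0.66) passed as higher in mgb-/- kidneys. The summed urothelial level ran from 4.00 to 4.89 in control, 3.96 to 6.12 in mild, 4.62 to 5.99 in moderate and 6.41 to 8.05 in severe kidneys, and 9 of the 12 urothelial genes passed as higher in severe than in mild kidneys. Krt14 (2.10), Grhl3 (2.15) and Upk1b (2.09) passed in mgb-/- against control. Cldn16 (1.70), 1 of 6 thick limb genes, Aqp2 (0.91), 1 of 7 of the collecting duct, and Flt1 (0.29), 1 of 10 of endothelium, also passed as higher there. These stand beside 5.34% of all genes. A higher mean was seen for 6 of the 6, 5 of the 7 and 5 of the 10 genes. Several of the 10 genes, among them Vim, Anxa2, Cd44 and Vcam1, are also expressed by fibroblasts, leukocytes or endothelium, and Cd44 and Cd24a also by urothelium. The part of these cells in the levels of the 10 genes was not tested.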

How the data were processed

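Total RNA of 24 whole kidneys (6 control and 18 mgb-/-) was labelled with Cy3 and hybridized to Agilent 1-colour arrays, 1 kidney per array, on 3 slides of 8 that each held 2 control and 6 mgb-/- kidneys. The authors deposited the intensity of every spot from Agilent Feature Extraction 10.10, background-subtracted and not normalized between arrays, together with a table of intensities normalized between arrays by a method not given in the sources used here.

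The log2 of the processed signal minus the 75th percentile of the array was used. Outlier spots and control spots were left out, spots of a probe were averaged, and a probe was kept if it stood well above background on 5 or more arrays, which left 38834 of 55681. No spot was saturated. Probes were named through RefSeq accessions (26762 named), and each of 27958 genes was read by its brightest probe. For 324 genes at least 1 array had no value, and the fit then used the remaining arrays. The number of arrays limits the precision. Coordinates are given for promoters only, from RefSeq GRCm38.p6.

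Models were run in limma 3.58.1 (R 4.3.3) on 2 groups where mgb-/- was compared with control and on 4 groups otherwise, and Benjamini-Hochberg adjustment covered every gene tested. Slopes on the grade and on the Lcn2 level were fitted over the 18 mgb-/- kidneys. Correlations used two-sided permutation tests with 100000 permutations, or exact ones within groups under 10 kidneys. The limma fit of mgb-/- against control and that of the slope on Lcn2 were tested on simulated data. The 10 genes, the other gene lists and the marker lists were chosen with earlier results of these data known. Named genes are the 10, the 3 largest passing changes in each direction of each list in mgb-/- against control, and the 5 genes most like Lcn2. Genes named for their slope on Lcn2 were chosen after their values were seen.

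Alternatives were quantile and median scaling, normexp correction (offset 50) on the median signal, the authors' table, no dim-probe filter or one on all 24 arrays, the mean of the probes of a gene, a block for the slide or for the replicate number, array quality weights, fits on the compared groups only, a 2-fold minimum, grade beside the Lcn2 level, and the omission of each kidney. Some marker genes are not reported here.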

Additional observations from a re-analysis of the deposited data

Results flagged for a closer look

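In 5 of 40 gene and group combinations, the highest kidney lay far from the others of its group by Dixon's gap criterion at the 95% level, which chance alone gives in about 5% of combinations. Severe replicate 5 accounts for 4 of them. Its Vcam1 level of 4.57 compares with 1.55 for the next severe kidney, its Sox9 level of -1.20 with -4.74, its Cd44 level of 1.49 with -1.32 and its Vim level of 5.40 with 3.42. The fifth is Lcn2 in mild replicate 2, at 1.27 against -0.05 for the next mild kidney.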

How the results depend on the processing

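The number of kidneys limits these comparisons. Of the 10 genes, those that passed in mgb-/- against control numbered 2 under quantile normalization, in the authors' table and with a filter on all 24 arrays, 5 with array quality weights, 0 with median scaling and without the dim-probe filter, and between 0 and 3 with 1 kidney left out. In severe against control they numbered 1 under quantile normalization, in the authors' table, with slide as a block and with a 2-fold minimum, 0 with median scaling, without the dim-probe filter and without severe replicates 4 and 5, and between 0 and 3 with 1 kidney left out. In mild against control 4 passed with array quality weights and with only the compared groups, the latter beside 8.33% of all genes as higher. In moderate against control 9 passed with array quality weights, 2 without severe replicates 4 and 5 (a choice made after seeing the data), and between 0 and 2 with 1 kidney left out. In moderate against mild 3 passed with array quality weights. These weights raised the share of all genes passing as higher in moderate against control from 0.647% to 7.43%. Where no such share is given, a gain for the 10 genes cannot be told from a looser test of all genes. Median scaling moved the median change of all genes against control to between -0.17 (moderate) and -0.14 (mild), and normexp correction moved that of severe kidneys to 0.11. The slopes on Lcn2 that passed ranged from 5 (without severe replicate 5) to 9 of 9. Correlations with a p under 0.05 numbered 4 on slide 1, 3 on slide 3, 0 within mild, 4 within severe and 2 within the 14 kidneys of lower Lcn2, and 8 or 9 with 1 kidney left out. The cause of these shifts was not tested.

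With the replicate number as a block, 0 genes passed in mgb-/- against control and 0 in severe against control. Of same-numbered pairs from different groups, 10 of 33 had a correlation of deviations over 0.1 (median 0.0048). Of different-numbered pairs 58 of 182 did (median 0.0036). Whether the numbers pair kidneys is not stated, and these correlations cannot decide it.

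Signs turned as follows. With median scaling Clu in mild against control was -0.035. Vcam1 in moderate against mild was 0.0078 under quantile normalization, 0.022 in the authors' table and 0.16 as the mean of its probes. Sox9 in severe against moderate was 0.20 with normexp correction and 0.32 in the authors' table. With array quality weights, severe against moderate gave -0.48 for Cd44, -0.18 for Cd24a, -0.39 for Vim and -0.14 for Anxa2, severe against mild gave -0.11 for Spp1 and -0.088 for Vim, and the slope of Vim on the grade was -0.016. Without severe replicates 4 and 5, severe against moderate gave -0.36 for Cd44, -0.052 for Cd24a and -0.40 for Vim, severe against mild gave -0.21 for Spp1 and -0.22 for Vim, and the slopes on the grade were -0.034 for Spp1 and -0.086 for Vim. Among the 14 kidneys of lower Lcn2, r of Clu was -0.094. With 1 kidney left out, severe against moderate ranged from -1.71 to 0.23 for Lcn2, -1.54 to 0.061 for Havcr1, -0.77 to 0.17 for Sox9, -0.35 to 0.53 for Cd44, -0.084 to 0.27 for Cd24a, -0.30 to 0.30 for Vim and -0.21 to 0.38 for Anxa2. Severe against mild ranged from -0.092 to 0.34 for Spp1, -0.20 to 0.52 for Clu, -0.018 to 0.84 for Vcam1, -0.12 to 0.45 for Vim and -0.020 to 0.57 for Anxa2, each lowest without severe replicate 5. Moderate against mild ranged from -0.27 to 0.20 for Vcam1, -0.0044 to 0.35 for Cd24a and -0.015 to 0.40 for Vim, and severe against control from -0.091 to 0.63 for Clu. Slopes on the grade ranged from -0.0082 to 0.20 for Spp1, -0.043 to 0.30 for Clu, -0.010 to 0.40 for Vcam1 and -0.048 to 0.22 for Vim.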
